A study of Homo sapiens with 4 samples.

Results

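The genes described here are 9 members of the LIN28 and let-7 axis, out of 18244 genes with a probe set of their own on the array: LIN28A, LIN28B, DICER1, DIS3L2, IGF2BP1, IGF2BP2, IGF2BP3, HMGA1 and HMGA2. They were taken by name, with every probe set that the platform's annotation pairs with exactly 1 of these symbols, which gave 27 probe sets out of 49293 that target cellular RNA. LIN28A was selected on these same intensities, because it was brighter in cells with the hairpin against BORIS, so its values are given as a description, without a test. The other members were also chosen with earlier results of these data known. Their counts and p-values are therefore not those of a choice made without sight of the data. The data were 4 Affymetrix PrimeView profiles of Kelly cells, an established human neuroblastoma line, in a form that had become resistant to the ALK kinase inhibitor TAE684.

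Both groups were grown in 1 µM TAE684, infected for 24 h with virus and selected in puromycin for 48 h. The shBORIS group carried a hairpin against BORIS, the CTCF paralog encoded by CTCFL, and the shLUC group carried the control hairpin. Each group had 2 arrays, described as biological duplicates in the labels, and each array was made from bulk RNA of a selected population of the same resistant line. The labels name 1 hairpin per target, so effects of reduced BORIS and effects of that hairpin on other RNAs cannot be told apart. In bulk RNA, fewer cells of a type and less RNA per cell cannot be told apart either.

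LIN28A and LIN28B are RNA-binding proteins with a cold shock domain and zinc knuckles. They hold the precursors of the let-7 microRNAs, and the terminal uridylyltransferases TUT4 and TUT7 then add a uridine tail, after which the exonuclease DIS3L2 degrades the precursor. Without LIN28, DICER1 cuts the precursor to the mature microRNA, which represses messages that pair with its seed. Among the best known of these messages are LIN28B itself, HMGA2, the IGF2BP family and DICER1. In neuroblastoma, LIN28B is known as an oncogene that keeps let-7 low and MYCN protein high.

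The let-7 sequences show what these proteins act on; the array measured the protein-coding messages and no mature let-7 was analysed here. In the RefSeq annotation of GRCh38.p14, 11 of 2370 human mature microRNA names share the let-7 seed GAGGUAG at bases 2 to 8, in 14 entries. Of these, 4 are shown 5′ to 3′ with the seed in capitals, because they differ outside the seed while the seed that pairs with targets is the same.

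hsa-let-7a-5p: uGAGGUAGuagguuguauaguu
hsa-let-7d-5p: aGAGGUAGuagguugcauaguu
hsa-let-7g-5p: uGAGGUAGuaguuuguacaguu
hsa-miR-98-5p: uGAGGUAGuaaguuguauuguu

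The zinc knuckles of LIN28 are known to bind GGAG in the loop region of let-7 precursors. In 9 of 13 RefSeq hairpins of these microRNAs, GGAG stood after the seed-bearing sequence and before the next annotated mature sequence or the hairpin's end. In 4 it did not. Among these 4 is MIR4500, whose seed-bearing sequence lies near the hairpin's end, so only the last 6 bases were searched and not its loop. No hairpin of MIR4458 was among the 13. MIRLET7A1 (chr9:94175957-94176036, plus strand) and MIRLET7G (chr3:52268278-52268361, minus strand) are shown as hairpins with the motif, in capitals. MIRLET7A3 (chr22:46112749-46112822, plus strand), which gives the same mature let-7a, is shown as a hairpin without it. A match is a description of the letters and not of binding in these cells.

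MIRLET7A1: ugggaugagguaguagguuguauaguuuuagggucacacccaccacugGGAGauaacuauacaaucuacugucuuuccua
MIRLET7G: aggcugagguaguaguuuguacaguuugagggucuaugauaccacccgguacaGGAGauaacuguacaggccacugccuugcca
MIRLET7A3: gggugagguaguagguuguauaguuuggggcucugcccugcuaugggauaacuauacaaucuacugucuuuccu

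Values are deposited linear intensities. Differences are shBORIS minus shLUC in log2(intensity + 16), so deposited differences of dim probe sets are understated. They are given on 2 scales, because the arrays differed as a whole. Spike-in ERCC probe sets had a median of 25.5 and 25.8 with shBORIS, against 24.8 and 24.4 with shLUC. The median cellular probe set was at 80.8 and 84.5 with shBORIS and at 64.4 and 60.4 with shLUC. The ERCC medians lie within 14.3 to 38.8, the range of background probe sets with 13 to 17 G or C bases. They, and centring on them, therefore say little about the scaling between arrays. As deposited, the median of the 10946 genes tested was higher with shBORIS by 0.48, with 77.2% of genes called higher and 4.6% lower. The second scale, called centred, gives values relative to the median gene by subtracting from each array its own median over the genes tested, and there 30.2% were called higher and 28.9% lower. The median of all cellular probe sets as the centre gave 4996 higher and 1908 lower, in place of 3307 and 3161. Quantile normalization gave 3222 higher and 2840 lower, in place of 8452 and 504 as deposited. Of the array's background probe sets, the ones rich in G or C bases were higher with shBORIS as well. Background probe sets with 13 G or C bases read 14.3 and 14.6 with shBORIS and 14.3 and 14.9 with shLUC. Those with 20 read 67.3 and 71.4 with shBORIS and 53.3 and 53.2 with shLUC. The base composition of the members' probes was not used here, and its part in the results was not tested. Centring subtracts the full median from dim probe sets too, whose deposited differences are compressed, so their falls on that scale depend on the pseudocount. Calls are at a limma adjusted p of 0.05 over all genes or probe sets fitted.

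CTCFL, the target of the hairpin, read 701 and 737 with shBORIS, against 3563 and 3376 with shLUC (log2 difference -2.25 as deposited, -2.72 on the centred scale), and 5 of its 7 probe sets were called lower as deposited. The cells carried markers of noradrenergic neuroblastoma, with all 6 analysed genes over the filter (PHOX2A, HAND2, GATA3, TH, DBH and ISL1). Their deposited intensities summed to 11220 to 11640 with shBORIS, against 9577 to 9949 with shLUC. On the centred scale DBH was called higher (0.39). PHOX2A (-0.65), HAND2 (-0.31), TH (-0.26), ISL1 (-0.17) and GATA3 (-0.15) were called lower there. PHOX2A also had the lower deposited mean with shBORIS, 1125 against 1265 with shLUC, and was not called as deposited. Over the filter were 2 of 5 fibroblast markers, 1 of 4 endothelial and 1 of 3 Schwann and glial markers, and the 3 immune markers analysed, PTPRC, CD14 and CD3E, stayed under it. Fibroblast markers summed to 831 to 916 with shBORIS and 1023 to 1074 with shLUC. COL1A1 among them was at 483 ± 44.9 with shBORIS and 754 ± 35.3 with shLUC (SD, n = 2 each). The other fibroblast markers had higher means with shBORIS. PDGFRB was at 276.5 with shBORIS and 201.5 with shLUC, and was not called on the centred scale (-0.05). LUM (59.8 and 45.6), COL3A1 (27.9 and 24.4) and DCN (26.3 and 23.0, with overlapping arrays) were under the filter. Summed endothelial markers were 199 to 213 with shBORIS and 174 to 197 with shLUC, and Schwann and glial markers 179 to 200 with shBORIS and 130 to 145 with shLUC. Immune markers summed to 78.4 to 78.6 with shBORIS and 69.3 to 76.1 with shLUC. All arrays were of an established cell line, and the source of these marker signals was not tested.

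Among the members, both LIN28 genes and DICER1 were much brighter with shBORIS, IGF2BP1 and IGF2BP3 less so, HMGA1 lay near the median gene, and DIS3L2 below it. IGF2BP2 and HMGA2 were dim in every array. By the brightest probe set of each gene, 7 of the 9 passed the filter on low values (an intensity of 61.4). Leaving LIN28A aside, 5 of the 6 tested were called higher as deposited, all but DIS3L2, beside 77.2% of all genes tested. On the centred scale, LIN28B, IGF2BP1, IGF2BP3 and DICER1 were called higher and DIS3L2 lower, beside 30.2% and 28.9% of all genes. The median difference of the 6 was 0.77 as deposited and 0.30 on the centred scale, against 0.48 and 0.00 for all genes tested. IGF2BP2 and HMGA2 are in none of these counts. The deposited difference also varied with brightness over all genes, filtered or not. Its median was 0.53 in the brightest of 10 classes, which holds LIN28B, IGF2BP1, IGF2BP3 and HMGA1. It was 0.59 in the 9th class, which holds DICER1, and 0.42 in the 6th, which holds DIS3L2. Centring subtracts the same median from every gene, so it takes no account of this.

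**Figure D1:**
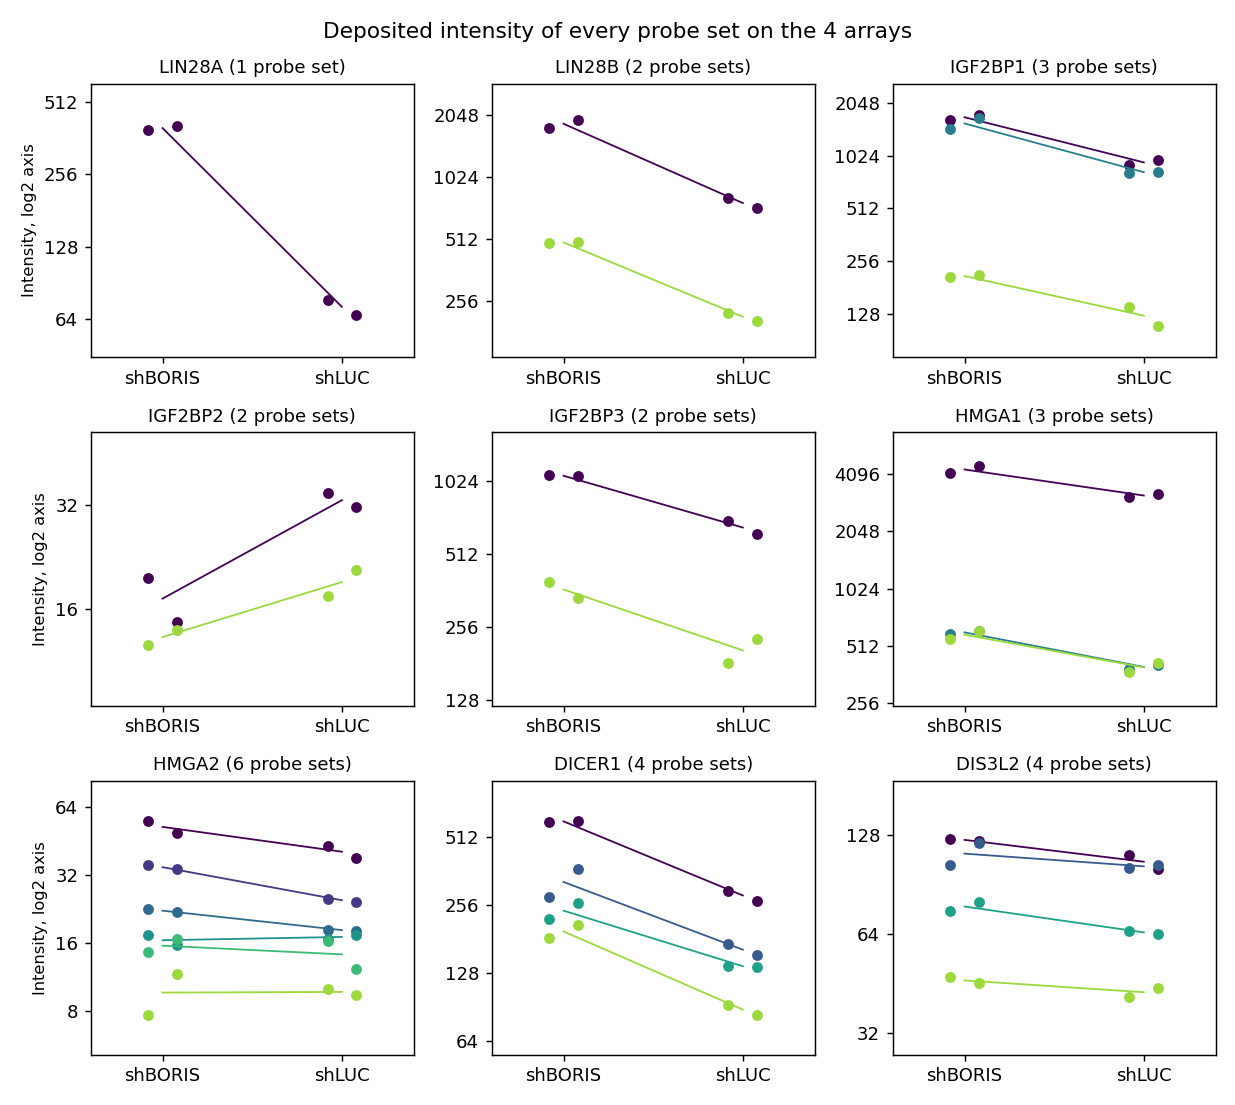
Intensity of every probe set of the 9 genes on each array, on a log2 axis, with shBORIS at the left of shLUC in each panel. Points are arrays (2 per group), each colour is 1 probe set, and lines join the group means. Both shBORIS points of LIN28A, and of every LIN28B and DICER1 probe set, lie above both shLUC points, and all IGF2BP2 and HMGA2 probe sets lie under the filter of 61.4.

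Across all probe sets with no filter, 26 were tested besides that of LIN28A. As deposited, 16 were called higher and 1 lower, beside 51.8% and 3.22% of all cellular probe sets. After centring, 11 were called higher and 10 lower, beside 16.5% and 46.1%. With the median of all cellular probe sets as the centre, these were 13 and 5. With a pseudocount of 1, 6 members' probe sets were called lower after centring, as were 12954 of all probe sets in place of 22725. The arrays of the 2 groups did not overlap in 23 of the 26. The share of all cellular probe sets without overlap was not counted, so this cannot be called particular to these genes. The 11 that were higher belong to LIN28B, IGF2BP1, IGF2BP3 and DICER1, and the 10 that were lower to IGF2BP2, HMGA2 and DIS3L2. Of the 27 probe sets, 9 were under the filter intensity. By their names, the brighter probe sets of LIN28B and IGF2BP2, both of IGF2BP3 and most of DICER1, its brightest included, may match several transcripts. Each was paired with a single symbol in the annotation.

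LIN28A had 1 probe set. It read 390.1 and 406 with shBORIS, against 77.4 and 67.1 with shLUC. The groups were far apart, with means of 398 ± 11.2 in shBORIS cells and 72.2 ± 7.30 in shLUC cells (SD, n = 2 each), a 5.51-fold ratio of intensities. On the log2 scale the difference was 2.23 as deposited and 1.76 on the centred scale, the 4th highest of 10946 genes. Over the alternatives tried the difference was between 1.76 and 2.45 as deposited and between 1.36 and 1.94 on the centred scale. The shLUC intensities lie close to the filter. By its mean over all 4 arrays the gene falls in the 7th of 10 brightness classes, where the median difference of all genes was 0.48.

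LIN28B, the paralog, was bright in both groups and higher with shBORIS. Its brighter probe set read 1768 and 1933 with shBORIS, against 805 and 721 with shLUC. The means were 1851 ± 117 with shBORIS and 763 ± 59.7 with shLUC (SD, n = 2 each), a 2.43-fold ratio. The groups did not overlap. The difference was 1.26 as deposited (SE 0.11; adjusted p = 2.8e-28) and 0.79 on the centred scale (SE 0.05; 95% interval 0.67 to 0.90; adjusted p = 1.9e-06), and 1.53% of genes had a higher difference. The other probe set read 490.5 and 492 with shBORIS and 223 and 205 with shLUC, and was higher by 1.14 as deposited and 0.67 on the centred scale. LIN28B kept its call under every alternative tried, with differences of 0.69 to 1.34 as deposited and 0.71 to 0.93 on the centred scale.

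**Figure D2:**
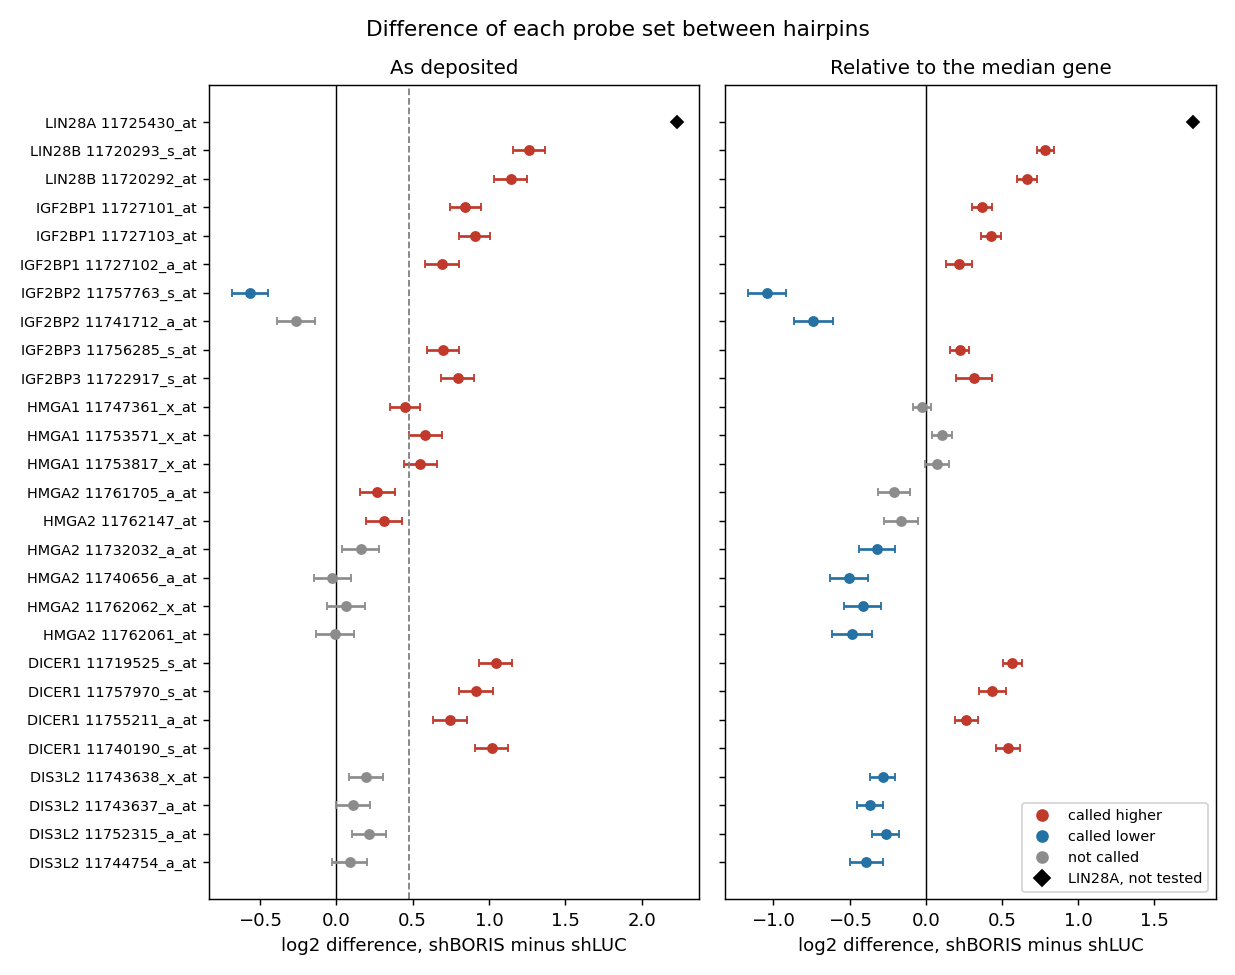
Log2 difference of each of the 27 probe sets, shBORIS minus shLUC, as deposited and on the centred scale. Bars are limma standard errors, the diamond is LIN28A, which was not tested, and the dashed line is the median gene, at 0.48 as deposited. Both probe sets of LIN28B and all 4 of DICER1 lie above the median gene, and all 4 of DIS3L2 and both of IGF2BP2 lie below it.

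DICER1, the nuclease that releases mature let-7 from its precursor, was higher with shBORIS in all 4 of its probe sets. The brightest read 597 and 599 with shBORIS and 296 and 267 with shLUC. The shBORIS arrays were nearly equal, and both lay above the shLUC arrays. The means were 598 ± 1.43 with shBORIS and 282 ± 20.5 with shLUC (SD, n = 2 each), a 2.12-fold ratio. The difference was 1.05 as deposited (SE 0.11; adjusted p = 3.2e-19) and 0.57 on the centred scale (SE 0.06; 95% interval 0.44 to 0.70; adjusted p = 3.1e-05). The other 3 probe sets were higher by 0.74 to 1.02 as deposited and by 0.27 to 0.54 on the centred scale. Only the smallest of these, 0.27, lost its centred call when 1 array was left out: without shBORIS replicate 2 it was 0.20 (adjusted p = 0.102).

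DIS3L2, the exonuclease that degrades uridylated pre-let-7, was called lower on the centred scale and was not called as deposited. Its brightest probe set read 125 and 123 with shBORIS and 112 and 101 with shLUC. The difference was 0.20 as deposited (SE 0.11; adjusted p = 0.085) and -0.28 on the centred scale (SE 0.08; 95% interval -0.45 to -0.11; adjusted p = 0.0094). The other 3 probe sets ran alike, at 0.09 to 0.21 as deposited, none called, and at -0.26 to -0.39 on the centred scale, all called lower. The centred call of the gene rests on shBORIS replicate 2 (-0.23 without it, adjusted p = 0.061). It was also lost with the median of all cellular probe sets as the centre (-0.14, adjusted p = 0.14) and without the filter on low values (-0.17, adjusted p = 0.086), and quantile normalization turned the deposited difference to -0.19 (adjusted p = 0.052). By its name, the brightest DIS3L2 probe set is of a kind that may bind other transcripts. Quantile normalization turned the deposited differences of all 4 probe sets below 0, at -0.12 to -0.31. Of the other probe sets, 1 lost its centred call without shBORIS replicate 2 (-0.26, adjusted p = 0.065) or shLUC replicate 2 (-0.22, adjusted p = 0.12), and 1 without shLUC replicate 2 (-0.30, adjusted p = 0.072). With the median of all cellular probe sets as the centre both lost it (-0.12, adjusted p = 0.26, and -0.24, adjusted p = 0.053), and with a pseudocount of 1 the first did (-0.25, adjusted p = 0.072).

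The IGF2BP proteins are RNA-binding proteins of fetal tissue and of tumours that stabilise their target messages, and their own messages are let-7 targets. IGF2BP1 read 1636 and 1757 in its brightest probe set with shBORIS, against 908 and 968 with shLUC. The groups were separate, with means of 1696 ± 85.8 with shBORIS and 938 ± 42.6 with shLUC (SD, n = 2 each). It was higher by 0.84 as deposited (SE 0.11; adjusted p = 1.2e-13) and by 0.37 on the centred scale (SE 0.07; 95% interval 0.22 to 0.51; adjusted p = 0.00090). The second probe set was higher by 0.91 and 0.43 on the same scales. The dimmest was higher by 0.69 and 0.22, and its centred call (adjusted p = 0.040) was lost without shBORIS replicate 1 (0.19, adjusted p = 0.13), without shBORIS replicate 2 (0.24, adjusted p = 0.073) and without shLUC replicate 2 (0.11, adjusted p = 0.34). With a pseudocount of 64 (0.14, adjusted p = 0.054) and without the intensity trend (adjusted p = 0.083) it was lost too, and quantile normalization ended the deposited call of that probe set (0.22, adjusted p = 0.095).

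IGF2BP3 read 1086 and 1072 with shBORIS and 701 and 617 with shLUC in its brighter probe set. Both shBORIS arrays were above both shLUC arrays, with means of 1079 ± 10.1 with shBORIS and 659 ± 59.6 with shLUC (SD, n = 2 each). It was higher by 0.70 as deposited (SE 0.11; adjusted p = 2.2e-09) and by 0.22 on the centred scale (SE 0.06; 95% interval 0.09 to 0.36; adjusted p = 0.0083). Without shBORIS replicate 1 the centred difference was 0.17 (adjusted p = 0.076). Quantile normalization of the deposited values gave 0.10 (adjusted p = 0.20). The other probe set was at 394 and 338 with shBORIS and 181 and 228 with shLUC, higher by 0.79 as deposited and by 0.32 on the centred scale (adjusted p = 0.032). That centred call was lost without shBORIS replicate 1 (0.17, adjusted p = 0.24) and without shLUC replicate 1 (0.11, adjusted p = 0.33), with a pseudocount of 1 (adjusted p = 0.058) and without the intensity trend (adjusted p = 0.11), and quantile normalization ended the deposited call (0.27, adjusted p = 0.14).

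IGF2BP2 went the other way, at intensities under the filter. Its brighter probe set read 19.7 and 14.7 with shBORIS, against 34.6 and 31.6 with shLUC. These lie in the range of the array's own background probe sets with 13 to 17 G or C bases, 14.3 to 38.8, so the size of the difference is uncertain. In the fit over all probe sets it was -0.57 as deposited (SE 0.12; adjusted p = 6.0e-06) and -1.04 on the centred scale (SE 0.13; adjusted p = 2.0e-05). The other probe set read 12.6 and 14.0 with shBORIS and 17.5 and 20.9 with shLUC, with -0.26 as deposited (adjusted p = 0.057; called lower with ERCC centring, at -0.30, and without the intensity trend) and -0.74 on the centred scale (adjusted p = 0.00041).

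The HMGA proteins bend DNA at AT-rich stretches and organise chromatin. HMGA1 read 4146 and 4517 with shBORIS, against 3101 and 3223 with shLUC, in its brightest probe set. It was higher by 0.45 as deposited (SE 0.09; adjusted p = 4.2e-06), about as much as the median gene, and differed by -0.03 relative to it (SE 0.06; 95% interval -0.15 to 0.10; adjusted p = 0.72). The other 2 probe sets were at 0.58 and 0.55 as deposited, and at 0.11 (adjusted p = 0.18) and 0.07 (adjusted p = 0.42) on the centred scale. Without shLUC replicate 2 both of these were called higher, at 0.19 (adjusted p = 0.036) and 0.21 (adjusted p = 0.024). With the median of all cellular probe sets as the centre they were called higher too, at 0.25 (adjusted p = 0.0093) and 0.22 (adjusted p = 0.036), and the brightest was at 0.12 (adjusted p = 0.11). Quantile normalization ended the deposited calls of all 3 (adjusted p = 0.51, 0.99 and 0.85). By their names, all 3 HMGA1 probe sets are of the kind that may bind other transcripts, so their values are uncertain.

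HMGA2, a classic let-7 target, was dim in all 6 probe sets. The brightest read 55.6 and 49.2 with shBORIS and 43.3 and 38.1 with shLUC, and the next 35.4 and 34.1 with shBORIS and 25.2 and 24.4 with shLUC. As deposited these were called higher, by 0.27 (adjusted p = 0.033) and 0.31 (adjusted p = 0.015), and on the centred scale they were at -0.21 (adjusted p = 0.10) and -0.16 (adjusted p = 0.21). Both deposited calls were lost without shBORIS replicate 1 (0.20 and 0.30, adjusted p = 0.21 and 0.060) and without shLUC replicate 2 (0.20 and 0.30, adjusted p = 0.25 and 0.083). Quantile normalization ended both as well (0.06 and 0.21, adjusted p = 0.73 and 0.14), and ERCC centring the first (0.23, adjusted p = 0.062). With a pseudocount of 64 both were called lower on the centred scale, at -0.25 each. Without shBORIS replicate 1 the centred difference of the brightest was called lower (-0.32, adjusted p = 0.033). The other 4 probe sets read 7.72 to 22.6 with shBORIS and 9.45 to 18.4 with shLUC, were not called as deposited, and were called lower by 0.32 to 0.50 on the centred scale. Their deposited differences were -0.03 to 0.16, against 0.48 for the median gene that centring subtracts. The centred call of the brightest of these 4 was lost without shBORIS replicate 2 (-0.26, adjusted p = 0.15) or shLUC replicate 2 (-0.27, adjusted p = 0.15), and that of 1 other without shLUC replicate 1 (-0.37, adjusted p = 0.051). With a pseudocount of 1, 3 of the 4 lost it (-0.23, -0.38 and -0.54, adjusted p = 0.31, 0.18 and 0.14), and with the median of all cellular probe sets as the centre 2 did (-0.17 and -0.27, adjusted p = 0.20 and 0.068). By its name, 1 of the 4 may bind other transcripts.

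**Figure D3:**
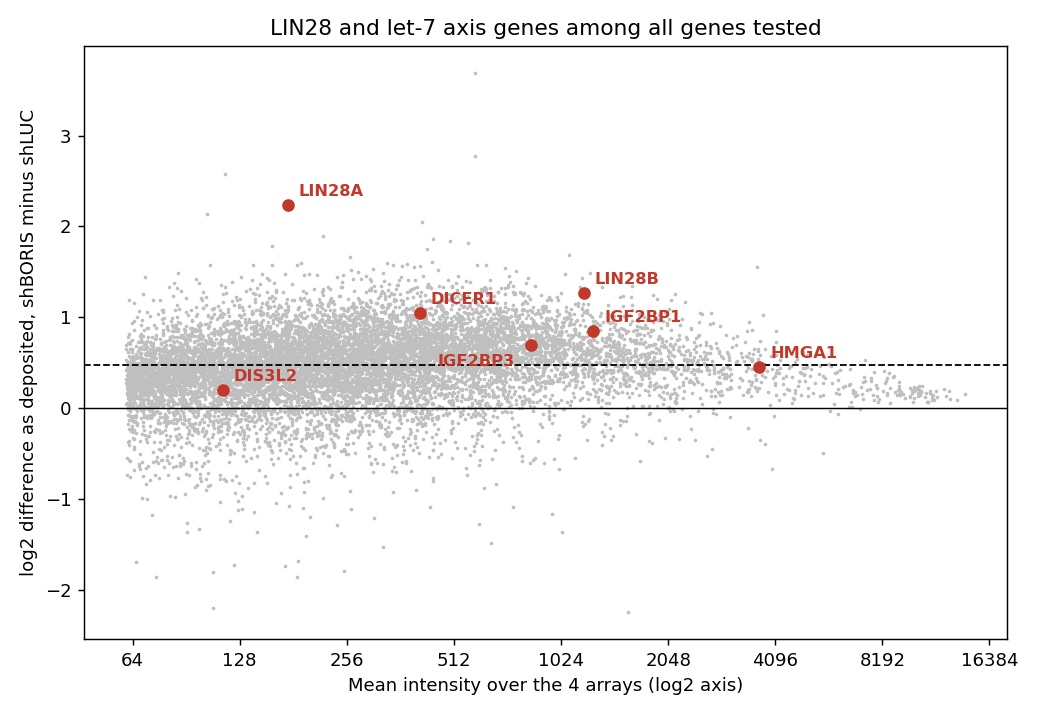
Log2 difference as deposited against mean intensity (log2 axis) for the 10946 genes tested, with the members that passed the filter marked and the median gene as a dashed line. LIN28A, LIN28B and DICER1 stand above the cloud's middle, HMGA1 lies on it, and DIS3L2 below it.

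Other genes of the pathway were taken from 8 lists written with the earlier results of these data known. Of their 82 distinct genes, 56 were tested, and 26 were called higher and 14 lower on the centred scale, beside 30.2% and 28.9% of all genes. With each array centred on its ERCC spike-ins in place of its median gene, 48 were higher and 2 lower, beside 75.2% and 5.36% of all genes tested. Without the filter on low values, the centred calls of DROSHA, TNRC6C, HNRNPA1, ACTB, HMGN1, HMGN4 and DNMT3B as lower were lost (-0.17 to -0.01), as they were with the median of all cellular probe sets as the centre (-0.14 to 0.02). The values by gene that follow are of the brightest probe set, with the mean of a gene's probe sets given beside some of them.

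The largest list held the other factors of let-7 biogenesis, silencing and turnover. As deposited 19 of 23 tested were called higher, beside 77.2% of all genes tested. On the centred scale 8 were higher and 7 lower, beside 30.2% and 28.9%. The centred median was -0.01, against 0.00 for all genes tested. TNRC6A, the scaffold of the silencing complex, read 1151 and 1176 with shBORIS and 464 and 438 with shLUC, and was higher by 1.34 as deposited and 0.86 on the centred scale (adjusted p = 1.6e-06), or 0.43 as the mean of its probe sets. AGO1, an Argonaute protein that carries the microRNA, averaged 354 ± 14.3 with shBORIS and 176 ± 11.3 with shLUC (SD, n = 2 each), a centred difference of 0.47 (adjusted p = 0.00012), or 0.30 as the mean of its probe sets. AGO4, another Argonaute, differed by -0.15 as deposited (adjusted p = 0.19) and fell by 0.63 on the centred scale (adjusted p = 0.00018). As the mean of its probe sets AGO4 was at 0.08 as deposited (adjusted p = 0.32) and -0.35 on the centred scale. The uridylyltransferase that acts with LIN28, TUT4, read 295 and 228 with shBORIS and 125.3 and 125.0 with shLUC, higher by 0.49 on the centred scale (adjusted p = 0.0059). TUT7 was under the filter.

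Some genes of that list were called higher as deposited and lower on the centred scale, and their calls were fragile. DROSHA, which cuts the primary transcript, was at 0.35 and -0.12 (adjusted p = 0.0016 and 0.045). Its deposited call was lost without shLUC replicate 2 (0.30, adjusted p = 0.052). Its centred call was lost without any 1 of the 4 arrays, shBORIS replicate 1 or 2 or shLUC replicate 1 or 2, at -0.12 to -0.13 (adjusted p = 0.16, 0.20, 0.076 and 0.088, in that order). TNRC6C, a paralog of TNRC6A, was at 0.26 and -0.22. Its deposited call was lost without shBORIS replicate 1 (0.27, adjusted p = 0.053), without shBORIS replicate 2 (0.24, adjusted p = 0.086) and without shLUC replicate 1 (0.23, adjusted p = 0.097), and its centred call without shBORIS replicate 2 (-0.19, adjusted p = 0.14) or shLUC replicate 2 (-0.14, adjusted p = 0.24). HNRNPA1, an RNA-binding protein that acts on let-7 precursors, was at 0.26 and -0.21, and lost the deposited call without shLUC replicate 1 (0.28, adjusted p = 0.063) or shLUC replicate 2 (0.25, adjusted p = 0.097).

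Of the other reported let-7 targets, 12 of 14 tested were called higher and 1 lower as deposited, beside 77.2% and 4.6% of all genes tested. On the centred scale 7 were higher and 2 lower, beside 30.2% and 28.9%. The medians on the 2 scales were 0.65 and 0.17, against 0.48 and 0.00 for all genes tested. CCND1, the cyclin D1 gene, read 1860 and 2021 with shBORIS, against 706 and 712 with shLUC, and was higher by 1.43 as deposited and 0.95 on the centred scale (adjusted p = 1.2e-06). Its partner kinase CDK6 averaged 3443 ± 34.1 with shBORIS and 1523 ± 177 with shLUC (SD, n = 2 each), a centred difference of 0.70 (adjusted p = 6.4e-06). IGF1R, the receptor of insulin-like growth factors, read 262 and 238 in its brightest probe set with shBORIS and 371 and 322 with shLUC, and was called lower on both scales (-0.44 and -0.92). As the mean of its probe sets IGF1R was at -0.09 as deposited, no longer called (adjusted p = 0.31), and at -0.53 on the centred scale. MYC, CCND2, INSR and NR6A1 were under the filter.

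**Figure D4:**
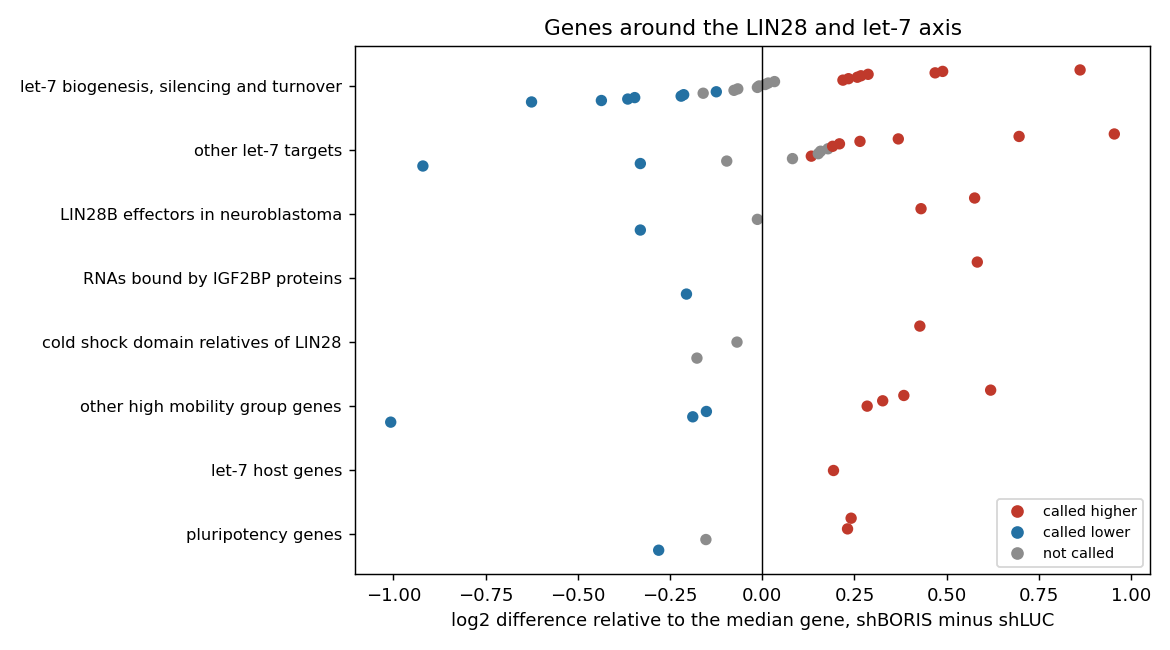
Log2 difference on the centred scale of every tested gene of the 8 lists, 1 row per list, coloured by its limma call. Genes called higher and genes called lower occur together in every list except those of cold shock relatives and of let-7 host genes, where none was called lower.

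The reported effectors of LIN28B in neuroblastoma were all tested. AURKA, the mitotic kinase that protects MYCN protein, read 2707 and 2915 with shBORIS, against 1369 and 1324 with shLUC, a centred difference of 0.58 (adjusted p = 8.0e-06). PBK, a mitotic protein kinase, was higher by 0.43 on the centred scale (adjusted p = 0.0014). RAN, the nuclear transport GTPase, was at -0.01 (adjusted p = 0.85). MYCN read 5727 and 6041 with shBORIS and 5347 and 5280 with shLUC, a difference of 0.15 as deposited (adjusted p = 0.11) and a difference of -0.33 on the centred scale (adjusted p = 0.00020), called lower. As the mean of its probe sets MYCN was called higher as deposited (0.22, adjusted p = 0.017) and was at -0.22 on the centred scale, and after quantile normalization it was called lower (-0.14, adjusted p = 0.0052). Without shBORIS replicate 1 the deposited difference of MYCN was 0.18 and called higher (adjusted p = 0.016).

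Among RNAs that IGF2BP proteins bind, BTRC, a ubiquitin ligase subunit, was higher by 0.58 on the centred scale (432 ± 47.2 with shBORIS and 199 ± 5.78 with shLUC, SD, n = 2 each), or by 0.37 as the mean of its probe sets. ACTB, beta-actin, was called higher as deposited (0.27) and lower on the centred scale (-0.21). Its deposited call was lost without shLUC replicate 1 (0.23, adjusted p = 0.13), and its centred call without shBORIS replicate 1 (-0.18, adjusted p = 0.092). Quantile normalization ended the deposited call (0.02, adjusted p = 0.76). The centred call was also lost with a pseudocount of 64, as the mean of the probe sets and without the intensity trend (adjusted p = 0.055, 0.060 and 0.051). MYC and CD44 were under the filter.

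In the family of cold shock proteins to which LIN28 belongs, CARHSP1 was higher by 0.43 on the centred scale (adjusted p = 9.3e-05). YBX1 and YBX2 were called higher as deposited, by 0.41 and 0.30, and differed by -0.07 and -0.18 on the centred scale (adjusted p = 0.29 and 0.16). YBX2 lost its deposited call without shBORIS replicate 1 (0.23, adjusted p = 0.12) or shLUC replicate 1 (0.26, adjusted p = 0.059). On the centred scale, YBX1 was called lower without shLUC replicate 1 (-0.14, adjusted p = 0.0053) and YBX2 without shBORIS replicate 1 (-0.30, adjusted p = 0.029).

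The other high mobility group genes, relatives of HMGA1 and HMGA2 that bind chromatin, divided. Of 7 tested, 6 were called higher and 1 lower as deposited, beside 77.2% and 4.6% of all genes tested. On the centred scale 4 were higher and 3 lower, beside 30.2% and 28.9%. HMGN3 read 2898 and 3136 with shBORIS and 1468 and 1338 with shLUC, a centred difference of 0.62 (adjusted p = 4.5e-06), and HMGB1 was higher by 0.38, or 0.67 as the mean of its probe sets. HMGN2 averaged 2189 ± 203 with shBORIS and 3163 ± 153 with shLUC (SD, n = 2 each), and fell by 0.53 as deposited and by 1.01 on the centred scale (adjusted p = 5.1e-07). As the mean of its probe sets HMGN2 was at -0.08 as deposited, no longer called (adjusted p = 0.42), and at -0.52 on the centred scale. HMGN1 (0.33 and -0.15) and HMGN4 (0.29 and -0.19) were called higher as deposited and lower on the centred scale. HMGN1 lost the deposited call without shLUC replicate 2 (0.27, adjusted p = 0.077). Its centred call was lost without shBORIS replicate 1 (-0.14, adjusted p = 0.12) and also without shBORIS replicate 2 (-0.16, adjusted p = 0.085). HMGN4 lost the deposited call without shBORIS replicate 2 (0.24, adjusted p = 0.11) or shLUC replicate 2 (0.23, adjusted p = 0.14).

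HUWE1, which hosts let-7f-2 and miR-98 in an intron, was the one let-7 host gene tested. It was higher by 0.67 as deposited and by 0.19 on the centred scale (adjusted p = 0.022). Quantile normalization ended the deposited call of HUWE1 (0.06, adjusted p = 0.45), and as the mean of its probe sets it was at -0.06 on the centred scale (adjusted p = 0.36). The centred call was lost without shBORIS replicate 2 (0.13, adjusted p = 0.18) or shLUC replicate 1 (0.14, adjusted p = 0.096), and under the 60th percentile filter (0.12, adjusted p = 0.11).

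LIN28A is also a gene of pluripotent cells. Of the other genes of that state 4 of 10 were tested, with 3 called higher as deposited, beside 77.2% of all genes tested. POU5F1, NANOG, DPPA4, ZFP42 and L1TD1 were under the filter in these cells, with POU5F1 at 31.3 and 38.5 with shBORIS and 19.5 and 24.8 with shLUC. On the centred scale SOX2 (0.24) and SALL4 (0.23) were called higher and DNMT3B (-0.28) lower. The 60th percentile filter ended the centred calls of SOX2 (0.17, adjusted p = 0.056) and SALL4 (0.16, adjusted p = 0.11). SOX2 lost its call without shLUC replicate 2 (0.16, adjusted p = 0.089), and SALL4 without shBORIS replicate 1 (0.15, adjusted p = 0.17) or shLUC replicate 2 (0.14, adjusted p = 0.16). DNMT3B lost its centred call without shLUC replicate 1 (-0.13, adjusted p = 0.14), when it was called higher as deposited (0.40, adjusted p = 0.0069).

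The genes tested whose values over the 4 arrays lay closest to those of LIN28A were EGR1, HTR3A and PPP2R1B, at Euclidean distances of 0.157, 0.186 and 0.342 on the log2 scale. For LIN28B they were TBK1, DHX9 and QSER1, at 0.0249, 0.0328 and 0.0342. Distances were taken between values relative to the array medians and to each gene's own mean, and with 2 arrays per group they mostly reflect a difference of the same size.

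Start-site sequences were compared because several members were higher in the same cells. RefSeq start-site sequences (GRCh38.p14) were found for 6 of the 9 genes, in 13 entries, and HMGA2, IGF2BP1 and LIN28A had none. The letters CACGTG, the E-box that MYC family proteins bind, which reads the same on both strands, were in the 250 bases upstream of the start in 2 of the 13, 1 of LIN28B and 1 of IGF2BP3, beside 6.34% of 35116 human entries. CCCTC, part of the motif that CTCF and BORIS share, was present on either strand in 8 of the 13, beside 66.6% of all entries. These matches say nothing of binding in these cells. The 2 windows with an E-box are shown with it in capitals, for LIN28B at chr6:104956857-104957106 (plus strand) and for IGF2BP3 at chr7:23470492-23470741 (minus strand).

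LIN28B: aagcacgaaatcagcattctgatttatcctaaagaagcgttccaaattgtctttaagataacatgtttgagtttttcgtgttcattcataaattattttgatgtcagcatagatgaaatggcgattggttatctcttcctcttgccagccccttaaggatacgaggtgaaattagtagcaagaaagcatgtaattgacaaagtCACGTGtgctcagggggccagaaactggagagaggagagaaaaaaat
IGF2BP3: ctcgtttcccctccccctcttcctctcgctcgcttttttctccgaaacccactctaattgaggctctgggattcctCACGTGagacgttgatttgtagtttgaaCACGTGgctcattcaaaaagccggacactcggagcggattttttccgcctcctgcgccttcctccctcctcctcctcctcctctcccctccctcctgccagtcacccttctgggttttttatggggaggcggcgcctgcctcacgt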

How the data were processed

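Gene expression was measured on 4 PrimeView arrays, 2 per hairpin, from 100 ng of total RNA with ERCC spike-ins, per the labels' protocols. The authors deposited a linear intensity per probe set and array. The submitters' processing notes list MAS5, affy and R 3.1.3; how the arrays were scaled was not given in the sources used here. Because the ERCC medians were nearly equal between arrays while the cellular medians were not, both scales are reported. The ERCC medians were at the level of background probe sets, so their near equality says little about the scaling. The number of arrays limits the precision.

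Of 49293 cellular probe sets, 45278 had 1 gene symbol, 1333 several and 2682 none; symbols were updated through Entrez identifiers (45208 matched, 70 did not). Each gene took the probe set with the highest mean of log2(intensity + 16), and genes under the 40th percentile (intensity 61.4) were left out: 10946 were tested and 7298 were not. Limma 3.58.1 in R 4.3.3 was fitted over all of them, and over all cellular probe sets, with a prior variance that followed intensity, and 2 residual degrees of freedom. As deposited the prior had infinite degrees of freedom, so the smallest p-values should be taken as ranks only; on the centred scale it had 7.86. P-values are two-sided with Benjamini-Hochberg adjustment. On the centred scale they combine each gene's spread between duplicates with the prior. As deposited, the gene-level fit takes the spread from the intensity trend alone, and not from each gene's own duplicates. With 2 arrays a group, the smallest p of an exact permutation test is 0.333.

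The members and lists were chosen with earlier results of these data known. Named besides the members were CTCFL, the 3 genes with the smallest centred p and the 1 with the largest centred difference of each list, list genes called in opposite directions on the 2 scales, and the 3 genes nearest to LIN28A and to LIN28B. TUT4, RAN, POU5F1 and COL1A1 were named after their values were seen, as were the genes of each list under the filter. Alternatives were pseudocounts of 1 and 64, no filter or the 60th percentile, the mean of all probe sets of a gene, quantile normalization, ERCC centring, another centre, no intensity trend, a replicate block and leaving out each array. Same-numbered arrays' deviations correlated at 0.098 over genes, with 2 pairs, so the numbers were not taken to pair the arrays.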

Additional observations from a re-analysis of the deposited data

How the results depend on the processing

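LIN28B, IGF2BP1 and DICER1 kept their calls at gene level under every alternative tried on both scales. Of 1355 values of single genes and probe sets under alternatives, 1184 kept their sign and call, 105 lost a call, 18 gained one, 14 of LIN28A moved by over 1 SD, and 34 changed sign, 22 of these with no call in either fit. After quantile normalization the members called higher as deposited numbered 3 (5 as reported) by gene and 8 (16) by probe set, with 3 (1) probe sets lower. Without the filter, 1 member was lower as deposited, IGF2BP2. Of the members' probe sets, 2 (1) were lower as deposited with ERCC centring and 2 (1) without the intensity trend. On the centred scale, the member called lower, DIS3L2, left the count (0) under the 60th percentile filter, which removes it, and with the median of all cellular probe sets as centre; probe sets called lower numbered 6 with a pseudocount of 1 and 5 with that centre (10). ERCC centring gave 48 list genes higher and 2 lower (26 and 14), and 8230 higher and 587 lower among all genes.

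Leaving out 1 array gave 5 members higher as deposited each time, and 3 to 4 higher and 0 to 1 lower on the centred scale. By probe set it gave 14 to 16 higher as deposited, and 8 to 12 higher and 7 to 11 lower on the centred scale. List genes were 23 to 24 higher and 11 to 14 lower. A lone array was assumed to vary like the other group.

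As deposited, quantile normalization changed the sign of DROSHA (-0.19), TNRC6C (-0.14), MYCN (-0.14), YBX2 (-0.0425), HMGN1 (-0.0814), HMGN4 (-0.29) and DNMT3B (-0.37), of 1 HMGA1 probe set (-0.0272) of all 4 of DIS3L2 (-0.23, -0.31, -0.12 and -0.12) and of DIS3L2 by gene (-0.19). On the centred scale, DROSHA was at 0.0208 with the median of all cellular probe sets as centre, and HUWE1 at -0.0601 as the mean of its probe sets. The cause was not tested.

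Over all genes, 275 were lower as deposited and 2164 higher on the centred scale under the 60th percentile filter, and 5083 lower on it without a filter, where the number of genes tested differs. Over all probe sets, quantile normalization gave 7732 higher and 7124 lower as deposited (25558 and 1589), and 941 were lower without shLUC replicate 1. On the centred scale, the other centre gave 12276 higher and 12071 lower (8116 and 22725), and a pseudocount of 1 gave 12954 lower.

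With the replicate block, members called stayed at 5 as deposited and at 4 higher and 1 lower on the centred scale by gene, at 16 and 1 and at 11 and 10 by probe set, and list genes at 26 and 14. The block ended the deposited calls of DROSHA (adjusted p = 0.051), TNRC6C (0.076), HNRNPA1 (0.059) and HMGN4 (0.12). Low signal over background limits HMGA2 and IGF2BP2.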
